A study of Mus musculus with 8 samples.

Results

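Ccl2, Ccl3, Ccl4, Ccl5, Ccl6, Ccl8 and Ccl9 are 7 of the 32285 genes counted in single myeloid cells of mice with a subcutaneous oropharyngeal carcinoma, and they were taken as a set because all 7 encode CC chemokines. They were followed in 4 classes of cells, each defined by UMIs (unique molecular identifiers, one for each captured RNA molecule) of marker genes other than the chemokines. Neutrophils were cells in which S100a8 and S100a9 made up at least 3% of UMIs, or at least 1% in the tumor. Monocytes held at least 2 UMIs of Ly6c2 and 1 of Csf1r, tumor macrophages at least 3 UMIs of C1qa, C1qb and C1qc together, and Flt3-positive cells at least 1 UMI of Flt3. Of 20012 cells, 16599 met at least one of these rules and 1324 met several.

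The cells came from tumor, spleen, bone marrow and blood of female C57BL6/J mice that had received MOPC cells, from a mouse oropharyngeal carcinoma, under the skin of the flank. Every mouse carried a tumor, so blood is a reference tissue and not a tumor-free state. WT mice and mice of Genotype_02, a gene knockout model whose gene the labels do not name, were mixed in each tissue, and which hashtag belongs to which genotype is not given in the sources used here. Living cells were sorted as Gr1-positive without markers of B, T, NK, mast or red cells, or as Gr1-negative and cKit-positive. Suspensions were told apart by hashtags, barcoded antibodies that mark all cells of one of them. Tumors, unlike the other tissues, were digested with enzymes for 45 min at 37 °C.

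CC chemokines are small secreted proteins that draw leukocytes along a gradient through G protein-coupled receptors. Ccl2 and Ccl8 are ligands of receptors on monocytes and other mononuclear cells, Ccl2 above all of Ccr2, which monocytes need to leave the marrow. Ccl3, Ccl4 and Ccl5 are inflammatory ligands, of which Ccl3 and Ccl5 bind Ccr1. Ccl5 is made in quantity by activated T and NK cells. Ccl6 and Ccl9 are rodent ligands of Ccr1 that myeloid cells make without prior stimulation.

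All 7 genes lie on chromosome 11, where Ccl5, Ccl9, Ccl6, Ccl3 and Ccl4 follow one another and Ccl2 and Ccl8 form a group of their own (mm10 coordinates from RefSeq GRCm38.p6). Ccl9 (chr11:83572917-83578636) and Ccl6 (chr11:83587886-83593087) are neighbors on the minus strand. Their start regions are shown because these related genes had opposite preferences for monocytes and neutrophils in the data below. Each line gives 150 bases, 5′ to 3′ on the gene's strand, from 120 bases before the RefSeq start site (Ccl6 at chr11:83593058-83593207, Ccl9 at chr11:83578607-83578756). Capitals mark the stretch that a local alignment placed against the other gene.
Ccl6: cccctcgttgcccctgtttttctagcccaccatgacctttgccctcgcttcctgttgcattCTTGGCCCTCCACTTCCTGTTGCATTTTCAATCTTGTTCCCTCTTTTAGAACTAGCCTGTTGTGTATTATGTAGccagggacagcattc
Ccl9: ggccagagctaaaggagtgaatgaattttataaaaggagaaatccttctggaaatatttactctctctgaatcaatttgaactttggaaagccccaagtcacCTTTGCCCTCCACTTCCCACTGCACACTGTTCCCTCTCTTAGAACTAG

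The alignment covered 74 columns, of which 79.7% were identical, and in Ccl9 it ran on past the printed bases. Among all 6 pairs of the 4 members with a start region in the table used (Ccl3, Ccl6, Ccl8 and Ccl9), no other covered more than 29 columns. Within 250 bases before to 50 after the start, and on both strands, the Ccl9 window held a kappaB-like pattern (GGG and CC spaced by 5 bases of any kind) at -35 to -26 and TGANTCA (an AP-1 pattern) at -53 to -47. It also held TTNCNNAA, a C/EBP-like pattern, at -75 to -68 and -38 to -31, the second match overlapping the kappaB-like one. None of these letters, nor GAGGAA, the PU.1-type form of the pattern bound by ETS factors, stood in the Ccl6 window. The patterns are common: of 27025 mouse start regions of that length, 50.4% held the first, 7.93% the second, 40.7% the third and 28.3% the last. The shorter ETS core GGAA was not searched, and on the reverse strand (as TTCC) it stands in the printed bases of both genes.

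Each tissue was captured in 1 RNA library, so a tissue effect and a library effect cannot be told apart. Cells were tied to tissues by the library numbers in their barcodes, which no source states outright, and 31 barcodes occurred in more than 1 library. The tumor gave 462 cells with 7163843 UMIs, spleen 6105 with 50111292, marrow 5682 with 64092351 and blood 7763 with 34232732. One hashtag could be assigned to 47.0% of tumor cells and to 89.6% to 91.9% of cells elsewhere, and 42.2% of tumor cells carried several. Of the 180 tumor neutrophils, 133 tumor monocytes and 143 tumor macrophages, 99, 27 and 47 met no other rule. UMIs were summed per hashtag, tissue and class over cells with a single hashtag, and each sum was treated as 1 mouse, which is an assumption. Levels are CPM, the gene's counts scaled to 1e6 UMIs of the sum, in which fewer expressing cells and less RNA per cell cannot be told apart. Tumor sums held 5 to 23 cells each, against 20 to 1242 in the other tissues.

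The labels were checked against marker genes. Tumor neutrophil sums held 24825 to 38405 CPM of 8 neutrophil genes, against 157685 to 215621 CPM in blood neutrophil sums. Ly6g, the defining neutrophil surface marker, averaged 6.07 CPM in tumor neutrophils and 68.5 CPM in blood neutrophils. Macrophage genes summed to 1865 to 5220 CPM in tumor neutrophils, against 217 to 485 CPM in blood neutrophils. In monocytes the same 8 genes summed to 3173 to 7170 CPM in the tumor and 724 to 1925 CPM in blood. C1qa, a defining macrophage marker, was at 0 in every blood neutrophil and blood monocyte sum. Tumor sums of different classes share cells that met several rules, and values for cells of 1 class are given beside the tumor results.

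**Figure D1:**
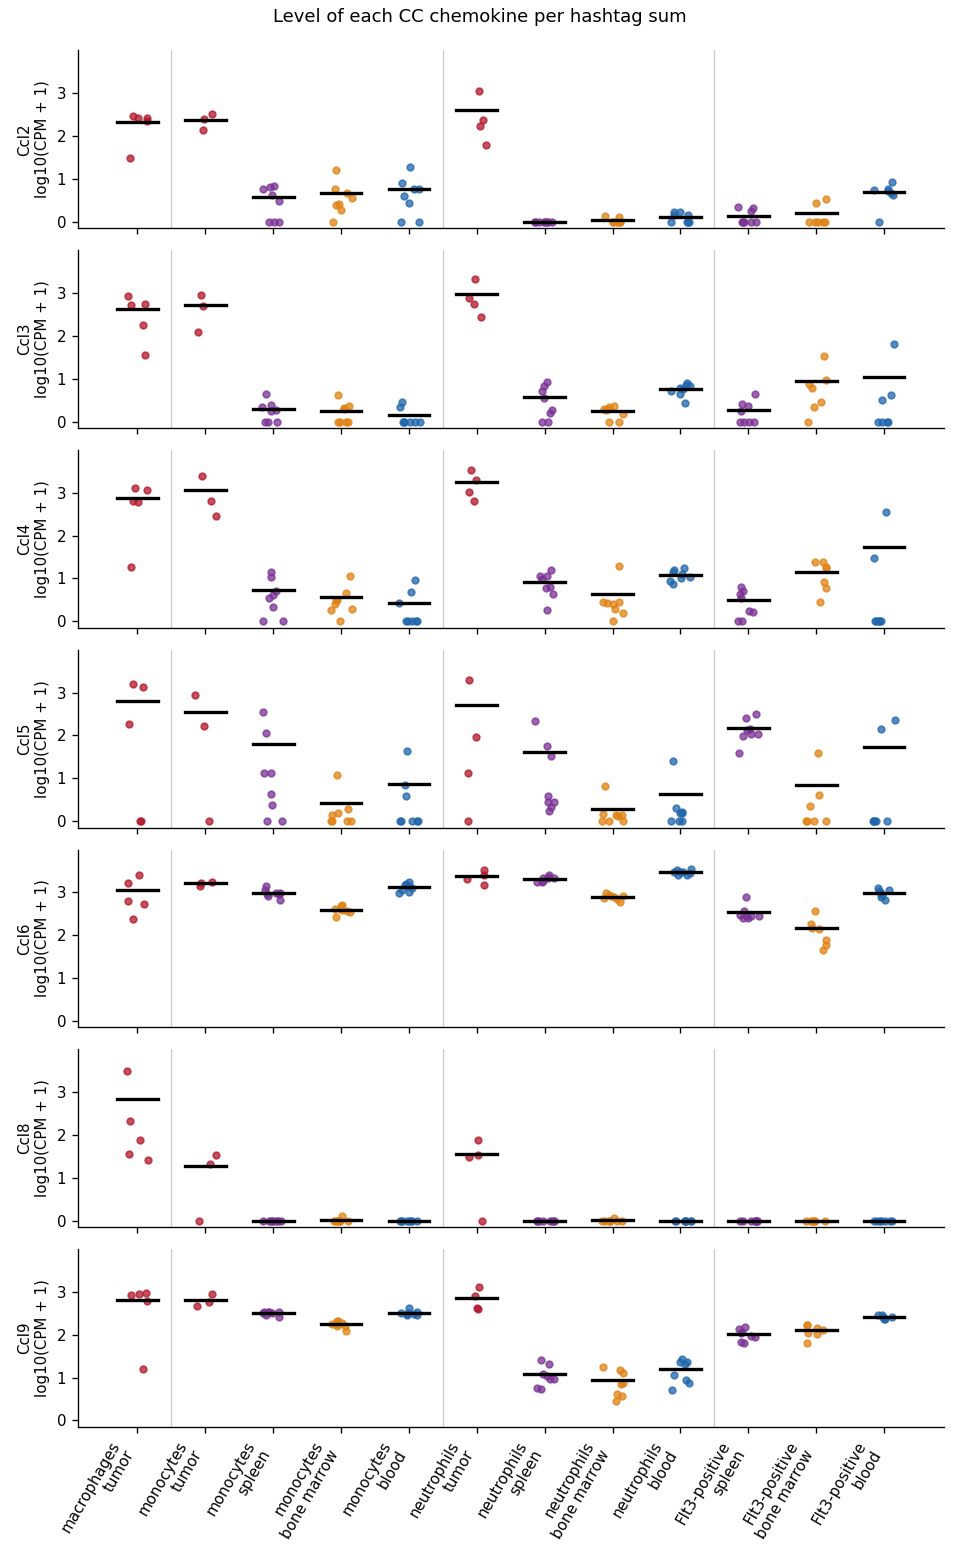
Level of each gene as log10(CPM + 1) in every sum (points) with the mean of CPM (bars), by class and tissue. Ccl2, Ccl3, Ccl4 and Ccl8 are high in the tumor columns only, apart from Ccl4 in 1 sum of blood Flt3-positive cells, Ccl6 is high in every neutrophil and monocyte column, and Ccl9 is high in monocytes of all tissues but in neutrophils of the tumor alone.

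In tumor neutrophils, 5 of the 6 members that could be tested were higher than in blood neutrophils, and 1 was lower. Over all 10248 tested genes 49.7% were called, 29.9% higher and 19.8% lower. These and the following calls are from edgeR's quasi-likelihood test with a Benjamini-Hochberg adjusted p under 0.05. Other scaling moves this split: with TMM factors 2195 genes were higher and 3095 lower, the median over all genes being -0.23 on the log2 scale in place of 0.24, while the members' split stayed at 5 and 1. In tumor monocytes 5 of 6 members were higher than in blood monocytes and none was lower, in a comparison that called 30.2% of 10181 genes, 15.8% higher and 14.4% lower. The plot of changes against blood shows these values beside those for spleen and marrow.

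**Figure D2:**
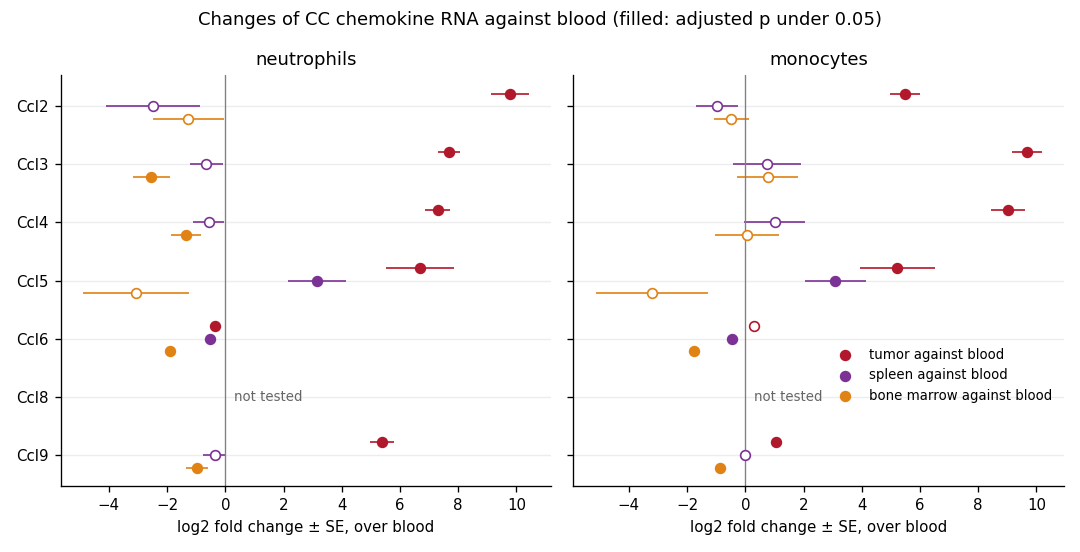
Log2 fold change ± SE of each gene over blood in neutrophils (left) and monocytes (right), for tumor, spleen and bone marrow. Filled points passed an adjusted p of 0.05. The changes in the tumor include 9.78 for Ccl2 in neutrophils and 9.03 for Ccl4 in monocytes, and marrow points lie at or left of zero for Ccl6 and Ccl9.

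Ccl2, the main ligand of Ccr2, was at 169.6, 233.7, 1120 and 59.2 CPM in the 4 tumor neutrophil sums, against 0, 0.204 and 0.711 CPM (lowest, median and highest of 8) in blood neutrophil sums. The groups did not overlap, and the log2 fold change was 9.78 ± 0.65 (SE, adjusted p = 9.7e-13), with only 5 UMIs of Ccl2 in all blood sums together. The highest tumor value, of the sum for hashtag 4, rests on 36 UMIs in 5 cells. Ccl2 was also at 246.5, 324.1 and 137.5 CPM in the 3 tumor monocyte sums, against 0, 3.80 and 17.7 CPM in blood monocyte sums. Here too no tumor sum came down to the highest blood sum, at a log2 fold change of 5.50 ± 0.51 (adjusted p = 3.25e-10).

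The tumor signal of Ccl2 in neutrophils was weakest in cells that met the neutrophil rule alone. Of these 99 cells 8.08% held a Ccl2 UMI, at 78.8 CPM over all of them. The share was 63.0% in the 27 cells that were also monocytes by rule, and 77.8% in the 27 cells that met the neutrophil, monocyte and macrophage rules. Cells with several hashtags made up 45.5%, 81.5% and 77.8% of these 3 groups, and median depth was 5107, 21729 and 33964 UMIs. Cells that were macrophages only held Ccl2 in 59.6% of 47, at 568.5 CPM with a median depth of 5882 UMIs. With neutrophils of 1 class only, Ccl2 fell under the minimum of 100 UMIs and was not tested. None of 48 tumor T cells held a Ccl2 UMI at a median depth of 6124 UMIs, a count that leaves room for up to 6.25%.

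Outside the tumor Ccl2 was scarce. Spleen neutrophil sums held none, marrow neutrophil sums 2 UMIs, and monocyte sums 0, 2.71 and 5.69 CPM in spleen and 0, 2.07 and 15.4 CPM in marrow. In marrow, monocytes held 50.3 times the Ccl2 of neutrophils (95% counting interval 13.3 to 425), and in spleen at least 11.8 times, set against 3 counts over all neutrophil sums. Shares of monocytes with a Ccl2 UMI were 2.24% in spleen, 2.82% in marrow and 3.56% in blood, against 0 of 214 blood erythroid cells (up to 1.40% at a median depth of 6290 UMIs). These and all other intervals and limits cover counting error only.

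Ccl8, another ligand of receptors on mononuclear cells, was absent or nearly absent outside the tumor. Neutrophil, monocyte and Flt3-positive sums of spleen and blood held no UMI of it, and marrow sums held 1 in neutrophils and 1 in monocytes. Tumor neutrophil sums were at 33.9, 30.3, 0 and 77.4 CPM, at least 265 times the blood level when set against 3 counts over all blood neutrophil sums. Tumor monocyte sums were at 0, 33.2 and 19.6 CPM, at least 46.3 times the blood level on the same footing. Ccl8 was too low overall for the test across genes in both classes.

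Among the 3 classes in the tumor, Ccl8 was found most often in macrophages. It was found in 60.8% of them (95% exact binomial interval 52.3 to 68.9) and in 55.3% of those that met no other rule. In cells that met only the neutrophil or only the monocyte rule the shares were 13.1% and 7.41%, next to 6.25% in tumor T cells. The 154 tumor cells that met no rule held Ccl8 in 11.04%, at 552.4 CPM, next to 1072 CPM in cells that were macrophages only, 36.5 CPM in neutrophils only and 4.95 CPM in monocytes only. Thinned to 1000 UMIs per cell, 15.7% of macrophages, 5.62% of neutrophils and 6.77% of monocytes of the tumor kept a Ccl8 UMI, all classes overlapping. The macrophage sums were at 24.4, 206.9, 75.1, 3161 and 34.1 CPM, and the sum for hashtag 6 stood far above the other four. One macrophage alone held 461 of the 2636 Ccl8 UMIs of the class.

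Ccl3, a ligand of Ccr1, was at 279.8, 752.6, 559.9 and 2146 CPM in tumor neutrophil sums, against 1.63, 4.88 and 6.92 CPM in blood neutrophil sums. All 4 tumor sums lay far above all 8 blood sums, with a log2 fold change of 7.69 ± 0.38 (adjusted p = 1.19e-17). In tumor monocytes Ccl3 was at 123.2, 501.5 and 910.2 CPM, while the 8 blood monocyte sums held 3 UMIs between them. The ratio of the summed levels was 1025 (95% counting interval 348 to 4995), and the gene passed the test (adjusted p = 4.33e-16).

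Ccl4, an inflammatory chemokine related to Ccl3, moved in the same direction. It was at 627.5, 1982, 1058 and 3325 CPM in tumor neutrophils, against 6.46, 10.8 and 16.3 CPM in blood neutrophils, a log2 fold change of 7.29 ± 0.44 (adjusted p = 1.84e-15) without overlap. Tumor monocyte sums were at 287.5, 640.0 and 2528 CPM, against 0, 0 and 8.21 CPM in blood, again without overlap (9.03 ± 0.58, adjusted p = 5.52e-14). In the genome annotation the spans of Ccl3 and Ccl4 overlap, so reads of one could be counted for the other if strand or isoform were not resolved.

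Unlike Ccl2, both genes were as high in tumor cells that met the neutrophil rule alone. In those 99 cells Ccl3 was at 1451 CPM with 69.7% of cells positive and Ccl4 at 3251 CPM with 64.6% positive, against 1075 and 2067 CPM in all 180 tumor neutrophils. In the 47 cells that were macrophages only, Ccl3 was at 235 CPM and Ccl4 at 377 CPM. Tumor T cells held Ccl3 in 12.5% and Ccl4 in 45.8% of 48 cells, and 180 of their 220 Ccl3 UMIs were in 1 cell. With neutrophils of 1 class only, both changes against blood kept their call.

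Outside the tumor, both genes were lower in marrow than in blood neutrophils. Ccl3 was at 0, 0.880 and 1.32 CPM in marrow neutrophil sums, all under the lowest blood sum (-2.54 ± 0.64, adjusted p = 0.000651). Ccl4 was at 0, 1.61 and 18.9 CPM there and overlapped with blood (-1.35 ± 0.52, adjusted p = 0.0194). The highest Ccl4 sum, of hashtag 6, drew 98 of its 100 UMIs from 1 cell. In spleen neutrophils Ccl3 (-0.66 ± 0.57, adjusted p = 0.389) and Ccl4 (-0.57 ± 0.54, adjusted p = 0.428) did not pass the test. Both marrow calls ended when only neutrophils low in granule genes were compared: Ccl3 was then at -0.81 (adjusted p = 0.368) and Ccl4 at 0.48 (adjusted p = 0.509). The Ccl4 call also ended with TMM factors (-1.10, adjusted p = 0.0683) and DESeq2 (-1.28, adjusted p = 0.0572).

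The pair was often found under the same tumor barcode. Of tumor neutrophils with a Ccl3 UMI 83.8% also held Ccl4, against 42.1% of those without. The corresponding shares were 88.2% and 58.1% in tumor monocytes and 88.2% and 36.0% in tumor macrophages. Thinning to 1000 UMIs per cell left 67.4% against 40.4% in neutrophils, and cells of 1 class only gave 76.8% against 36.7%. In blood neutrophils 19.6% of the 92 Ccl3-positive cells held Ccl4, against 2.43% of the rest. These shares pool cells of 1 library and carry no test. Several hashtags were carried by 61.1% of tumor neutrophils, 75.9% of tumor monocytes and 61.5% of tumor macrophages. In cells that met the neutrophil rule alone this was 45.5%. How far several cells under 1 barcode account for the pairing was not tested.

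Ccl5, the T and NK cell chemokine that also binds Ccr1, varied widely between sums of one group. In tumor neutrophils it was at 1933, 12.1, 93.3 and 0 CPM, against 0, 0.514 and 24.0 CPM in blood neutrophils. Tumor and blood overlapped, although the test gave a log2 fold change of 6.69 ± 1.18 (adjusted p = 1.5e-05). Without the sum for hashtag 2 the value was 1.38 (adjusted p = 0.727). Tumor monocytes were at 872.9, 166.2 and 0 CPM, against 0, 0 and 43.4 CPM in blood (5.23 ± 1.30, adjusted p = 0.00219), and without hashtag 2 the value was 3.70 (adjusted p = 0.0786).

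Cells that carried a UMI of a T or NK marker (Cd3d, Cd3e, Cd3g, Trbc2, Nkg7, Gzma, Ncr1 or Klrb1c) held most Ccl5 in these classes. They made up 12.8% of tumor neutrophils and held 91.1% of the class's Ccl5 UMIs. In tumor monocytes they were 28.6% of cells with 93.2% of Ccl5, and in tumor macrophages 20.3% with 86.2%. Left without such cells, the 3 classes had 32.0, 45.6 and 79.0 CPM of Ccl5. With these cells left out, the change in tumor neutrophils was 4.39 (adjusted p = 0.0754). The marker list summed to 0 to 1518 CPM in tumor neutrophil sums, with Gzma and Ncr1 at 0, and to 8.99 to 51.2 CPM in blood neutrophil sums, with Ncr1 at 0. Tumor T cells themselves were at 5174 CPM of Ccl5 with 79.2% of cells positive.

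**Figure D3:**
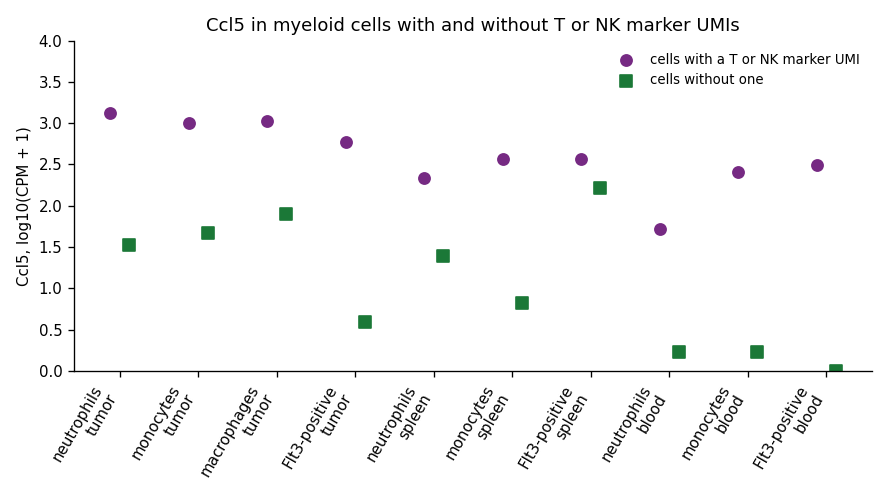
Ccl5 as log10(CPM + 1), pooled over cells of each class in tumor, spleen and blood that held a T or NK marker UMI (circles) and over cells that held none (squares). The circles lie above the squares in every column drawn, and the highest squares are those of Flt3-positive cells of spleen, at 164 CPM.

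In spleen, Ccl5 was at 0.704, 2.38 and 216.7 CPM in neutrophil sums, against 0, 0.514 and 24.0 CPM in blood (3.15 ± 0.99, adjusted p = 0.0114), and the groups overlapped. The top sum, of hashtag 3, stood above the next one, at 54.4 CPM, and 1 spleen cell alone held 438 of the 774 UMIs of the class. Without that sum the change was 1.50 (adjusted p = 0.27). The call was also lost in cells of 1 class only and in neutrophils low in granule genes. Spleen monocytes were at 0, 7.61 and 358.4 CPM, against 0, 0 and 43.4 CPM in blood (3.09 ± 1.05, adjusted p = 0.0312), and the change was 1.01 (adjusted p = 0.539) without hashtag 3. Cells with a T or NK marker UMI held 59.9% of Ccl5 in spleen neutrophils and 92.7% in spleen monocytes. They made up 6.25% and 8.95% of these cells, and the rest were at 23.7 and 5.64 CPM. Ccl5 and Ccl6 were the members called in spleen: 1 of 6 higher and 1 lower in neutrophils, where 38.3% of genes were called (25.6% higher, 12.7% lower). Monocytes gave the same split, where 23.0% of genes were called (18.2% higher, 4.84% lower, and with TMM factors 1217 genes higher and 870 lower).

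Flt3-positive cells of spleen held Ccl5 at 38.2, 121.1 and 316.9 CPM over 8 sums, against 0, 0 and 37.9 CPM over 7 sums of Flt3-positive marrow cells. The groups did not overlap, with a log2 fold change of 4.91 ± 0.84 (adjusted p = 1.74e-05). Here cells with a T or NK marker UMI held 18.2% of Ccl5, the rest were still at 164 CPM, and without such cells the change stayed called. In Flt3-positive marrow cells the order was turned, with 1.99 CPM in cells that held such a UMI and 7.62 CPM in the rest. Spleen Flt3-positive sums held 8180 to 17010 CPM of 8 dendritic cell genes, against 319 to 1986 CPM in marrow, where progenitor genes stood at 839 to 2034 CPM. The part of this difference in makeup was not tested.

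Of the 4 members tested between Flt3-positive cells of spleen and marrow, 2 were called, both higher, while 53.4% of 10122 genes were called (23.0% higher, 30.3% lower). The second was Ccl6, at 245.6, 286.1 and 798.0 CPM in spleen and 45.2, 140.2 and 357.2 CPM in marrow (1.25 ± 0.31, adjusted p = 0.00115). The groups overlapped, and without cells that held T or NK marker UMIs the change was 0.24 (adjusted p = 0.607). Such cells made up 42.9% of Flt3-positive cells in marrow and 6.32% in spleen, so leaving them out changed the groups unequally. In the marrow sums Cd3e, Cd3g, Gzma and Ncr1 were at 0. What these cells are was not tested. Ccl9 was at 63.9, 99.0 and 149.0 CPM in spleen and 65.0, 130.0 and 170.5 CPM in marrow (-0.37 ± 0.17, adjusted p = 0.0684). Ccl4 was at 0, 1.59 and 5.37 CPM in spleen and 1.77, 16.9 and 23.5 CPM in marrow (-2.28 ± 0.99, adjusted p = 0.053).

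Ccl6, a Ccr1 ligand made by myeloid cells at rest, was high in nearly every neutrophil and monocyte outside the marrow. Shares of cells with a Ccl6 UMI were 92.8% in tumor neutrophils, 89.3% in spleen, 64.3% in marrow and 96.2% in blood. The background was 4.17% in tumor T cells, 7.37% in spleen T cells, and 16.7% in T cells and 7.48% in erythroid cells of blood. T cells of blood had a median of 7428 UMIs, above the 3059 of blood neutrophils. By mean level the order was neutrophils of blood, tumor and spleen, then monocytes of tumor and blood. Neighbors in this order differed by less than the larger SD of the pair, except spleen neutrophils from tumor monocytes and tumor monocytes from blood monocytes.

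In marrow Ccl6 was lower in both classes. Marrow neutrophil sums were at 599.9, 786.1 and 975.9 CPM, against 2547, 2934 and 3456 CPM in blood neutrophil sums, with no overlap (-1.91 ± 0.12, adjusted p = 5.1e-16). Marrow monocyte sums were at 261.4, 397.0 and 493.9 CPM, against 983.6, 1348 and 1724 CPM in blood, again with no overlap (-1.75 ± 0.14, adjusted p = 4.45e-12). In all, 4 of 6 members were lower in marrow neutrophils and none higher, in a comparison that called 76.1% of genes, 41.9% lower and 34.2% higher. The count of members was 2 with TMM factors, 2 with DESeq2 and 0 with neutrophils low in granule genes. In marrow monocytes 2 of 6 were lower and none higher, where 54.6% of genes were called, 22.8% lower and 31.8% higher.

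Within marrow neutrophils Ccl6 followed the granule genes that mark immature cells. Cells in which Camp, Ltf, Ngp and Chil3, transcripts of secondary granules and their stage, made up under 1% of UMIs held Ccl6 at 2693 ± 228 CPM (SD, n = 8 hashtags). Cells at 1% or more held 100.8 ± 47.3 CPM. The first group was higher in 8 of 8 hashtags (exact paired permutation test, two-sided, p = 0.0078125, the smallest that 8 pairs can give). Within the second group, cells at 1% to 5% were at 361.5 CPM, those at 5% to 10% at 66.8 CPM and those at 10% to 20% at 15.2 CPM. Neutrophils under 1% were at 2801 CPM in spleen and 2956 CPM in blood. When only these were compared, Ccl6 was at -0.13 (adjusted p = 0.28) in marrow and -0.08 (adjusted p = 0.686) in spleen, both over blood. The 2 groups of cells share their library, and the split was chosen after seeing the data.

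**Figure D4:**
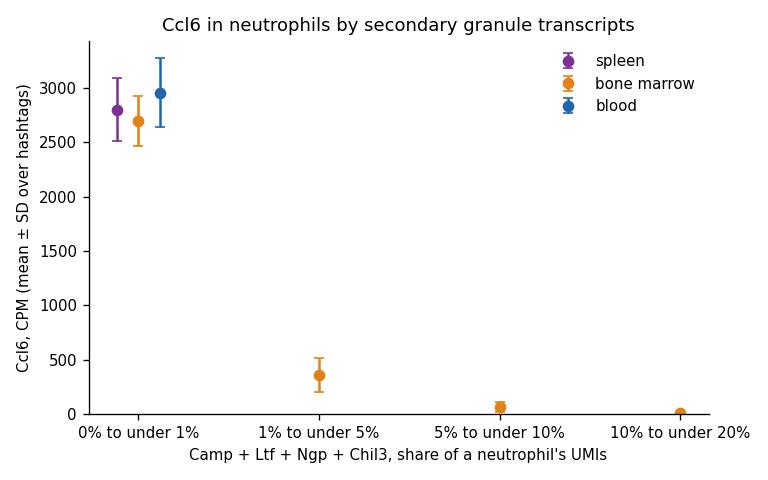
Ccl6 in neutrophils (CPM, mean ± SD over hashtags) by the share of a cell's UMIs that came from Camp, Ltf, Ngp and Chil3. Spleen, marrow and blood cells under 1% lie at 2693 to 2956 CPM, and marrow cells above that share drop to 361.5 CPM and lower.

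Spleen neutrophils taken whole were at 1727, 2130 and 2572 CPM of Ccl6, against 2547, 2934 and 3456 CPM in blood (-0.52 ± 0.11, adjusted p = 0.00041), overlapping only at the edge. Their sums held 12165 to 42464 CPM of 6 immature neutrophil genes, against 55.0 to 604 CPM in blood. Spleen monocytes were at 646.5, 936.3 and 1417 CPM, against 983.6, 1348 and 1724 CPM in blood (-0.44 ± 0.13, adjusted p = 0.015), a call that ended without cells holding T or NK marker UMIs (-0.32, adjusted p = 0.113). In the tumor, Ccl6 stayed near the blood level. Tumor neutrophils were at 1501, 2036, 3391 and 2551 CPM and overlapped with blood (-0.36 ± 0.15, adjusted p = 0.0419), a call lost in 10 of 25 other settings. Tumor monocytes were at 1427, 1682 and 1761 CPM (0.30 ± 0.18, adjusted p = 0.229).

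Ccl9, the neighbor of Ccl6 and also a Ccr1 ligand, separated monocytes from neutrophils outside the tumor. Blood monocyte sums were at 294.7, 337.5 and 430.0 CPM, against 4.13, 12.6 and 24.0 CPM in neutrophil sums of the same 8 hashtags, with cells that met both rules left out. The log2 fold change within hashtags was 4.73 ± 0.15 (adjusted p = 3.79e-19). It was 5.36 ± 0.16 in marrow (adjusted p = 5.81e-16) and 5.43 ± 0.28 in spleen (adjusted p = 9.99e-11), and monocytes lay above neutrophils in every hashtag of the 3 tissues. A Ccl9 UMI was found in 78.2% of blood monocytes and 5.22% of blood neutrophils, with 1.87% of blood erythroid cells as background.

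Ccl6 ran the other way in the same sums. In blood it was at 927.0, 1242 and 1455 CPM in monocytes and 2585, 2947 and 3466 CPM in neutrophils (-1.33 ± 0.07, adjusted p = 1.61e-14). Marrow gave -1.33 ± 0.09 (adjusted p = 1.12e-10) and spleen -1.19 ± 0.14 (adjusted p = 1.58e-06), with no overlap in any tissue. The median over all genes of the change in monocytes over neutrophils was 0.37 in blood, 0.96 in marrow and 0.60 in spleen on the log2 scale, and -0.02, 0.09 and 0.03 with TMM factors. Ccl6 and Ccl9 kept their signs and calls under that scaling.

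**Figure D5:**
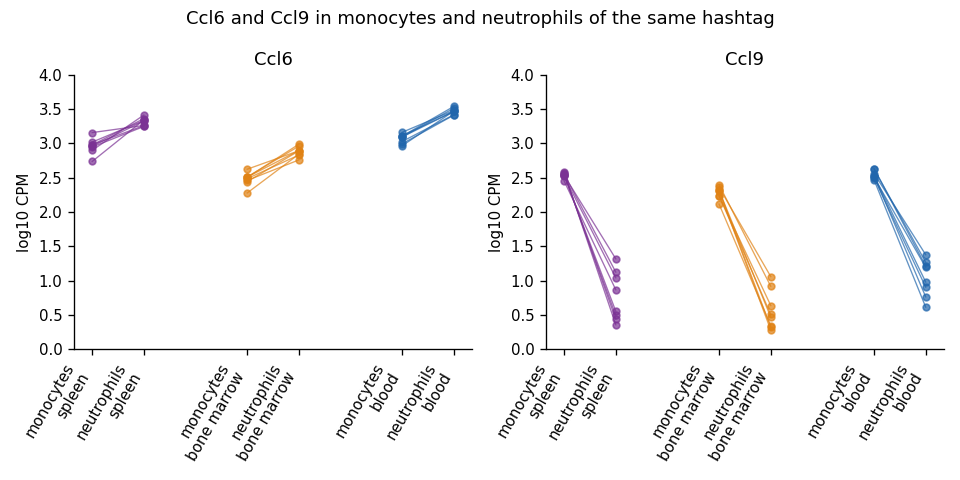
Ccl6 (left) and Ccl9 (right) as log10 CPM in monocytes and neutrophils of spleen, marrow and blood, with lines joining sums of the same hashtag. Every Ccl6 line goes up toward neutrophils and every Ccl9 line goes down.

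Of the members tested between monocytes and neutrophils, blood gave 1 of 4 higher and 2 lower, the second lower one being Ccl4, where 83.7% of 8556 genes were called (49.5% higher, 34.2% lower). Ccl4 was at 0, 0 and 8.32 CPM in blood monocytes and 5.84, 11.002 and 17.2 CPM in blood neutrophils (-2.73 ± 0.50, adjusted p = 2.4e-05), the groups overlapping through 1 monocyte sum. Marrow gave 1 of 3 higher and 1 lower, with 88.5% of 9993 genes called (67.4% higher, 21.0% lower). Spleen gave the same counts with 81.6% of 8865 genes called (55.5% higher, 26.2% lower). With TMM factors the genes higher and lower were 4328 and 3948 in marrow, in place of 6739 and 2102, and 3527 and 3465 in spleen, in place of 4916 and 2319. Ccl5 in spleen was at 0, 8.03 and 112.1 CPM in monocytes and 0.722, 2.42 and 62.8 CPM in neutrophils (0.27 ± 0.65, adjusted p = 0.705). Without cells holding T or NK marker UMIs that sign turned, to -3.67 (adjusted p = 3.8e-06).

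In the tumor, Ccl9 levels of neutrophil and monocyte sums overlapped. Tumor neutrophil sums were at 398.5, 807.3, 1275 and 419.1 CPM, against 4.11, 15.01 and 26.1 CPM in blood neutrophils (5.38 ± 0.41, adjusted p = 4.55e-13), all above every blood sum. Tumor monocyte sums were at 472.4, 911.5 and 569.7 CPM, against 284.6, 312.7 and 411.6 CPM in blood monocytes (1.07 ± 0.15, adjusted p = 1.15e-06), also without overlap. Tumor neutrophils of 1 class only were still at 357 CPM over their 99 cells, with 32.3% of cells positive, against 6.25% of tumor T cells. In marrow Ccl9 was lower than in blood in both classes, without overlap in monocytes (-0.88 ± 0.11, adjusted p = 7.07e-08) and with overlap in neutrophils (-0.98 ± 0.39, adjusted p = 0.0248). The monocyte call ended with thinning to 1000 UMIs per cell (-0.31, adjusted p = 0.27). The neutrophil call was lost in 8 of 29 other settings, among them TMM factors (-0.77, adjusted p = 0.0522), DESeq2 (-0.64, adjusted p = 0.165) and neutrophils low in granule genes (-0.21, adjusted p = 0.717). In spleen monocytes it was at 257.2, 331.7 and 346.8 CPM, and the change over blood was -0.01 ± 0.11 (adjusted p = 0.986).

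The change from blood to tumor was compared directly between monocytes and neutrophils, in sums without cells that met both rules, which left 2 tumor monocyte sums. Of 6 members, 2 changed less in monocytes and none changed more, in a test that called 15.7% of 11586 genes, 8.46% lower and 7.23% higher. With TMM factors 674 genes were lower and 1444 higher, in place of 980 and 838. The 2 were Ccl9 (-4.39 ± 0.54, adjusted p = 6.34e-09) and Ccl2 (-4.00035 ± 1.32, adjusted p = 0.0289). Ccl2 was at -1.22 (adjusted p = 0.522) without the tumor neutrophil sum of hashtag 4 and at -3.29 (adjusted p = 0.058) with TMM factors. The changes of Ccl3 (2.35 ± 1.40, adjusted p = 0.301) and Ccl4 (1.9999 ± 1.12, adjusted p = 0.259) were not shown to differ between the classes at this number of sums.

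Tumor macrophages and tumor neutrophils could be compared in 3 hashtags, again without cells of both rules. None of 5 members passed edgeR's test, which called 8.03% of 1158 genes (1.64% higher, 6.39% lower), while 1 had an unadjusted p under 0.05 and DESeq2 called 2. That gene was Ccl6, at 240.2, 326.8 and 1195 CPM in macrophages and 1526, 1870 and 3391 CPM in neutrophils (-2.13 ± 0.62, adjusted p = 0.0682), without overlap. Without the hashtag block the same change passed (-2.06, adjusted p = 0.0134). Ccl5 was at 330.9, 1321 and 2231 CPM in macrophages and 17.2, 93.3 and 2719 CPM in neutrophils (2.07 ± 0.92, adjusted p = 0.15), and without hashtag 2 the change passed (3.9987, adjusted p = 9.08e-06). That fit rests on hashtags 3 and 4 alone, whose neutrophil sums held 3 Ccl5 UMIs each. Over all tumor macrophages, cells with a T or NK marker UMI held 86.2% of Ccl5. For Ccl8 the summed level in macrophages was 19.1 times that in neutrophils (95% counting interval 6.27 to 95.2), but 61 of the 66 macrophage UMIs came from hashtag 3. In hashtag 2, macrophages held no Ccl8 UMI and neutrophils were at 11.9 CPM.

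Tumor barcodes carried more of the set than blood barcodes. The median number of members with a UMI was 4 in tumor neutrophils, 5 in tumor monocytes and 5 in tumor macrophages, against 1 in blood neutrophils and 2 in blood monocytes. At least 4 members were found in 58.3% of tumor neutrophils and 0.0166% of blood neutrophils. Tumor cells were also deeper, with a median of 11124 UMIs per neutrophil against 3059 in blood. Thinned to 1000 UMIs, the mean number of members was 2.23 in tumor neutrophils and 0.882 in blood neutrophils. Barcodes with several hashtags made up 61.1% of tumor neutrophils, 75.9% of tumor monocytes and 61.5% of tumor macrophages, against 7.16% of blood neutrophils and 19.4% of blood monocytes. In barcodes with 1 hashtag, chosen after seeing the data, the medians were 3 in 68 tumor neutrophils, 4 in 32 tumor monocytes and 4 in 39 tumor macrophages, against 1 in blood neutrophils and 2 in blood monocytes. The mean after thinning was then 1.99 in tumor neutrophils and 0.880 in blood neutrophils.

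Genes on a general list of CC chemokine receptors, not all of them receptors for the members, also differed between tissues and classes. Of 11 receptor genes listed, 6 could be tested in neutrophils, and 4 were higher in the tumor than in blood, where 29.9% of all genes were. Among them were Ccrl2, a chemerin-binding receptor that does not signal (6.49 ± 0.40, adjusted p = 2.42e-15), Ccr2 (4.05 ± 0.50, adjusted p = 2.38e-08) and Ccr1 (0.51 ± 0.12, adjusted p = 0.000878). The median of the 6 was 2.28, beside 0.24 over all genes. Among tumor monocytes 3 of 4 receptors were higher, beside 15.8% of all genes, and Ccr2 was lower (-0.87 ± 0.19, adjusted p = 0.00057). Within blood, Ccr2 was 6.41 ± 0.14 higher in monocytes than in neutrophils, and Ccr1 was -3.42 ± 0.15 (adjusted p = 8.61e-22 and 2.43e-16).

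The list of inflammatory induction genes (Tnf, Il1b and the NF-kappaB and Toll-like receptor genes that drive such chemokines in other settings) was mostly higher in the tumor. In tumor neutrophils 13 of 14 tested genes were higher than in blood and 1 was lower, with a median of 2.53, while 29.9% of all genes were higher and 19.8% lower. Nfkb1, a subunit of NF-kappaB, was at 3.39 ± 0.14 (adjusted p = 3e-19), and Tnfaip3, a feedback inhibitor, at 4.44 ± 0.24 (adjusted p = 5.53e-17). In tumor monocytes 13 of 14 were higher, beside 15.8% of all genes, with a median of 2.45 beside -0.10 over all genes. In marrow neutrophils 12 of 14 were lower than in blood and 1 was higher, beside 41.9% and 34.2% of all genes, with Il1b at -4.57 ± 0.16 (adjusted p = 1.1e-21). In marrow monocytes 12 of 14 were lower, beside 22.8% of all genes. All 13 tested genes were higher in Flt3-positive cells of spleen than of marrow, where 23.0% of all genes were, among them Relb, an NF-kappaB subunit used in dendritic cells (4.11 ± 0.31, adjusted p = 1.05e-11). These counts describe the list and do not set it apart from other genes.

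Of 13 other CC chemokines listed, at most 2 reached the minimum for a test in any comparison. Ccl25 was at 0.84 ± 0.52 (adjusted p = 0.182) between tumor and blood neutrophils, and Ccl24, with no UMI in blood neutrophil sums, was called higher in the tumor (adjusted p = 2.84e-08). Of 5 genes for binding or clearing chemokines, 4 were tested in neutrophils and 3 were higher in the tumor, beside 29.9% of all genes. Among them was Ext1, an enzyme of heparan sulfate synthesis (4.39 ± 0.59, adjusted p = 1.54e-07). In monocytes 4 of 5 were higher in the tumor, beside 15.8% of all genes, among them Cd44, a hyaluronan receptor (1.64 ± 0.14, adjusted p = 6.15e-11).

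Genes whose pattern was most like each member were found over 83 sums and 12544 genes, by Pearson's r of log2(CPM + 10). The sums share libraries and, in the tumor, cells, so r is a description. Ccl3 and Ccl4 were most like each other (r = 0.98), followed for both by Cxcl3, a neutrophil-attracting chemokine (0.95 and 0.91), and Ccrl2. Ccl2 was most like Timp1, an inhibitor of matrix proteases (0.96), Arg1, the arginase of tumor myeloid cells (0.95), and C3ar1, a complement receptor (0.95). Ccl5 went with the T cell genes Themis (0.82), Cd247 (0.82) and Trbc2 (0.81). Ccl6 went with Cyp4f18, an enzyme that degrades leukotriene B4 (0.95), and Tyrobp, a signaling adaptor (0.92). Ccl8 was most like Folr2, a folate receptor of tissue macrophages (0.83), and Ccl9 most like Capn2, a calpain (0.93), and Vcan, a matrix proteoglycan made by monocytes (0.92).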

How the data were processed

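Cells of 4 tissues were captured in 4 RNA and 4 surface-tag libraries. The deposited files hold raw counts of UMIs per gene and cell, made with Cell Ranger 7.0.1 on mm10 per the submitters' processing notes, in 1 filtered matrix; filters on cells by the authors are not given in the sources used here, and no doublet caller was run. A hashtag was assigned at 20 or more counts and 3 times the next one. Sums held at least 20 cells, or 5 in the tumor.

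Summed counts were tested with edgeR 4.0.16 (quasi-likelihood, total UMIs as library sizes, genes with at least 100 UMIs, Benjamini-Hochberg adjusted p under 0.05). Each tissue comparison was fitted over all tissues of a class. Comparisons of classes used cells that met only 1 of the 2 rules, with the hashtag as a block. The p-values measure the spread between hashtags. Counting intervals are exact at 95%, and floors are 3 counts. UMIs are molecules, but the intervals cover counting error only.

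Same-numbered hashtags deviated together between spleen and blood (correlations 0.323 to 0.591 in neutrophils and 0.105 to 0.477 in monocytes) and between marrow and blood (0.217 to 0.487 and 0.311 to 0.506). These were over 0.1 in all 8 pairs of each. A hashtag's best match was its own number in 5 of 8 in neutrophils for both tissues. In monocytes it was 3 of 8 for spleen and 4 of 8 for marrow. Hashtag numbers were taken to pair these tissues, which is an assumption. A block on hashtag numbers changed no member's call there.

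On simulated counts of 10248 genes, 91% of log2 changes of 2 and 95% of changes of 3 were recovered between tumor and blood neutrophils. Between spleen and blood neutrophils the shares were 99% and 100%. Each share was taken over 100 changed genes together, and recovery at the members' own levels was not tested separately. Of the simulated calls, 7.46% were false between tumor and blood, above the 5% aimed at, and 4.79% between spleen and blood. Alternatives were TMM factors, DESeq2 1.42.0, no filter on low counts, thinning to 1000 UMIs, other class and hashtag rules, the block, and leaving out each hashtag. Cells with T or NK marker UMIs, barcodes found in several libraries, shares in cells of 1 class, members per cell in cells with 1 hashtag and the granule split were examined after seeing the data. All 7 members are named. From each of 4 pathway lists at most 4 genes per comparison with the smallest adjusted p could be named, and 3 genes per member for likeness of pattern. Members and lists were chosen with earlier results of these data known. Start regions are from RefSeq (GRCm38.p6), for 4 of 7 members, and were aligned with Biopython 1.88. Permutation tests used scipy 1.17.1. Some genes that these rules would name are not reported here.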

Additional observations from a re-analysis of the deposited data

Results flagged for a closer look

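For independent values with a normal spread, chance sets a highest or lowest sum far apart in about 1 in 20 groups. The sums here need not meet that, being often low in counts, skewed and partly of shared cells. Among 39 groups of sums, 10 had a highest or lowest sum set far apart from the others of its group. In the tumor these were Ccl2 in macrophages of hashtag 4 (30.02 CPM, nearest other sum 223.8), Ccl2 in neutrophils of hashtag 4 (1120 CPM, nearest 233.7), Ccl5 in neutrophils of hashtag 2 (1933 CPM, nearest 93.3) and Ccl8 in macrophages of hashtag 6 (3161 CPM, nearest 206.9). In spleen they were Ccl5 in monocytes (358.4 CPM, nearest 110.2) and in neutrophils (216.7 CPM, nearest 54.4), both of hashtag 3, and Ccl6 in Flt3-positive cells of hashtag 5 (798.0 CPM, nearest 367.8). In marrow it was Ccl4 in neutrophils of hashtag 6 (18.9 CPM, nearest 1.86). In blood they were Ccl4 in Flt3-positive cells of hashtag 6 (346.1 CPM, nearest 29.3) and Ccl9 in monocytes of hashtag 4 (411.6 CPM, nearest 334.0).

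The change from blood to tumor differed between monocytes and neutrophils, by a test of the difference itself, for Ccl2 (-4.00035 on the log2 scale, adjusted p = 0.0289) and Ccl9 (-4.39, adjusted p = 6.34e-09, edgeR). The Ccl2 call was lost in 6 of 22 other settings, with -1.22 (adjusted p = 0.522) without hashtag 4 of the tumor and -3.29 (adjusted p = 0.058) with TMM factors.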

How the results depend on the processing

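Of 61 tested member results 32 were called, in 12 comparisons that called 8.03% to 88.5% of all tested genes. This count and the counts of members below describe the settings and do not set the members apart from other genes. Of the 32 called, 17 kept the call under every alternative run and 15 lost it under at least 1. Of the 29 others 11 gained one. The causes were not tested beyond what an alternative's own construction removes. A value of the other sign appeared in 13 results, in 9 of them with no call on either side. The other 4 were, with a hashtag margin of 10 times Ccl5 (-2.90) and Ccl6 (0.30) in tumor over blood neutrophils, with neutrophils low in granule genes Ccl4 in marrow over blood (0.48), and without cells holding T or NK marker UMIs Ccl5 in spleen monocytes over neutrophils (-3.67).

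Thinning to 1000 UMIs called 950 genes in tumor, 832 in spleen and 3833 in marrow over blood neutrophils (5091, 3925 and 7797 in full), 226, 142 and 777 in monocytes (3077, 2341 and 5558), 771 in Flt3-positive cells (5401), 3255, 3099 and 2766 in monocytes over neutrophils of blood, marrow and spleen (7160, 8841 and 7235), 15 in tumor macrophages over neutrophils (93) and 82 in the difference of tumor changes (1818). Of the 4 members that could then be tested in neutrophils 3, 0 and 1 were called (6, 2 and 4 of 6 in full), of 2 in monocytes 0, 0 and 1 (5, 2 and 2 of 6), of 1 in macrophages over neutrophils 1 (0 of 5), and of 4 in the difference 1 (2 of 6).

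In tumor over blood neutrophils, 896 genes and 3 members were called with a margin of 10 times, 2110 and 3 with S100a8 and S100a9 at 3% everywhere, and 3302 genes in cells of 1 class. Neutrophils low in granule genes gave 1161 genes and 0 members in spleen and 3958 and 0 in marrow. Members called in marrow neutrophils were 2 with TMM factors and 2 with DESeq2. In cells of 1 class, 1 member was called in spleen neutrophils and 1 in spleen monocytes, where DESeq2 called 1 and leaving out cells with T or NK marker UMIs 0. Without such cells 3098 genes were called in Flt3-positive cells, 3 in macrophages over neutrophils, and 1075 genes and 1 member in the difference, which kept 1 member with the 3% rule. With no filter, 4 members were called in Flt3-positive cells, 5 in blood and 4 in spleen monocytes over neutrophils. Macrophages over neutrophils gave 167 genes and 2 members with DESeq2, 321 and 3 with no filter, and 486 and 1 with no replicate block.

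Leaving out 1 hashtag at a time gave 1 to 2 members in spleen neutrophils and in spleen monocytes, 1892 to 3123 genes in tumor monocytes, 0 to 185 genes and 0 to 2 members in macrophages over neutrophils, and 846 to 1847 genes and 1 to 2 members in the difference. A margin of 10 times left no value for tumor monocytes, macrophages over neutrophils or the difference, nor did cells of 1 class for tumor monocytes or the 3% rule for macrophages over neutrophils.

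Between tumor and blood, hashtag numbers went together in 1 of 4 pairs in neutrophils and 0 of 3 in monocytes, and between Flt3-positive cells of spleen and marrow in 4 of 7. With the replicate block 4959, 2936 and 5467 genes were called there, and 4 members in Flt3-positive cells, where Ccl4 (-2.45, adjusted p = 0.0185) and Ccl9 (-0.39, adjusted p = 0.0464) were then lower in spleen. In the paired tissues the block gave 4387 and 8002 genes in spleen and marrow neutrophils, 2578 and 5758 in monocytes, and 1784 in the difference.

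Depth limits Ccl2, Ccl3, Ccl4 and Ccl8 outside the tumor, where few UMIs stand behind a level, and tumor sums rest on 5 to 23 cells. Of the shares of positive cells, 259 moved beyond their interval with thinning and 14 did not.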
